A study of Mus musculus with 23 samples.

Results

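A set of 10 genes of the machinery that recognises and engulfs apoptotic cells were followed in microglia, the resident macrophages of the brain. They were chosen by symbol from 53090 genes in the deposited tables: the receptor tyrosine kinases Axl and Mertk, the phosphatidylserine receptor Timd4, the bridging proteins Gas6, Pros1 and Mfge8, the engulfment adaptor Elmo1 with its partner Dock2, and the scavenger receptors Scarb1 and Msr1. All 10 of the 10 genes passed the filter on low counts that left 18720 genes for testing. The cells came from brains of female C57BL/6 mice in 4 groups, and no genetic change is named for any group. The 7 libraries of young mice (Y) and the 5 of old mice (O) held the animals' own microglia. Young repopulated (Y-re, 3 libraries) and old repopulated (O-re, 8 libraries) mice had first lost microglia to PLX5622, an inhibitor of the receptor CSF1R given in chow at 1200 ppm, and carried the microglia that refilled the brain afterwards. Control chow lacked the drug. The sources used here do not give the ages, how long the drug was fed or how long refilling took. The labels do not say how many mice stand behind a library, so p-values measure the spread between these libraries.

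Dying cells expose phosphatidylserine on their surface. Gas6 and Pros1 bind this lipid and dock it to receptors of the TAM family, which holds Tyro3, Axl and Mertk. Mfge8 links the lipid to integrins, and Timd4 binds it directly. Signals from several uptake receptors meet at Elmo1 and Dock2, which together activate the GTPase Rac and drive closure of the phagocytic cup. In macrophages Mertk is known for clearance in the resting tissue, and Axl is known to be induced in inflamed or activated cells.

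Libraries held between 43.66 and 58.19 M expected counts. The label microglia was checked with 10 microglia markers (P2ry12, Tmem119, Sall1 and others), and every one averaged at least 1 CPM (counts scaled to library size) in every group. Their summed level had a median of 30300 CPM in Y, 24900 in Y-re, 20000 in O and 15900 in O-re, with lowest values of 26100, 23100, 10400 and 9810. Markers of other myeloid cells were present in all groups. The sum of 10 markers of border-associated macrophages, which line the brain's surfaces and vessels, ranged from 139 to 348 CPM in Y, 508 to 758 in Y-re, 280 to 1340 in O and 140 to 1680 in O-re. The sum of 10 monocyte and neutrophil markers ranged from 27.7 to 293 CPM in Y, 113 to 348 in Y-re, 223 to 2200 in O and 128 to 3020 in O-re. None of these 30 markers was at 0 in a whole group. Summed markers of lymphocytes, astrocytes, neurons, oligodendrocytes and endothelial cells reached at most 20.9, 182, 5.16, 139 and 92.2 CPM in any library. In such bulk RNA, fewer cells of a type and less RNA per cell cannot be told apart. Young replicate 3 stood apart: its log2 CPM had a median correlation of 0.912 with the other libraries, where the rest had 0.933 to 0.956, and it held the fewest genes with a count, 16399.

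Axl was higher than in young microglia in each of the other 3 groups. Its relative Mertk and the bridging protein Pros1 were lower in old repopulated than in young microglia. The promoters of these 3 genes are shown because the genes differed in opposite directions. The RefSeq table of GRCm38.p6 held 9 promoters for 8 of the 10 genes, each running from 250 bases before the start site to 50 after it. Capitals mark the letters GGGCGG, a GC box as bound by Sp1, and GAGGAA, a core of sites for the macrophage factor PU.1, each searched on both strands.
Axl, chr7:25788684-25788983, minus strand: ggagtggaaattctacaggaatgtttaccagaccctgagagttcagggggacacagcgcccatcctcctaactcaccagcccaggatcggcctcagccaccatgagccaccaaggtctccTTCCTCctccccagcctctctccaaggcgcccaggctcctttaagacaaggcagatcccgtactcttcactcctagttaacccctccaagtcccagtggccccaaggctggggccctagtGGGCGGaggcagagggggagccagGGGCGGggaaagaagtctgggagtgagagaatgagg
Mertk, chr2:128698665-128698964, plus strand: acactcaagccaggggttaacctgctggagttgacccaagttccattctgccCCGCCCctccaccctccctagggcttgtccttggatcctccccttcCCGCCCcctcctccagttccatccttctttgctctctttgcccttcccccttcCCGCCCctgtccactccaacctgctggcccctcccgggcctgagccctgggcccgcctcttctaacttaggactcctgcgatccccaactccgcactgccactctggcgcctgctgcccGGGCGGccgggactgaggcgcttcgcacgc
Pros1, chr16:62854057-62854356, plus strand: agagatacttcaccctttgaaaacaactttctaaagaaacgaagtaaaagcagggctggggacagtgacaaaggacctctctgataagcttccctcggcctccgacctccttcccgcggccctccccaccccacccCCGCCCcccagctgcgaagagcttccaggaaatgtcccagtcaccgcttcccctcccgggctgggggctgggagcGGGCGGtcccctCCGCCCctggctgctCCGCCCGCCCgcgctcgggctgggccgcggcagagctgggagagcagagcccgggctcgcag
The GC box occurred 2 times in the Axl window, 4 times in that of Mertk and 5 times in that of Pros1, where 2 of the matches overlap. The same letters are in 35.7% of all 32851 promoters. GAGGAA, present in 28.3% of promoters, occurred 1 time in the Axl window, read as its reverse complement 130 bases before the start, and in neither of the other two windows. The letters TGANTCA of an AP-1 site were in none of the 9 member promoters and in 7.81% of all. GC content was 60.3% for Axl, 66% for Mertk and 66.7% for Pros1, with a median of 52.7% over all promoters. These matches describe letters in a window and were not tested for binding.

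Axl (ENSMUSG00000002602.16, GRCm38 chr7:25757273-25788705, minus strand) was measured at 222, 244, 276, 296, 302, 304 and 321 CPM in the 7 young libraries. The 3 young repopulated libraries held 807, 904 and 1120 CPM. The 5 old libraries held 356, 396, 490, 518 and 556 CPM. In the 8 old repopulated libraries the lowest was 498, the median 705 and the highest 1190 CPM. Every library of Y-re, O and O-re thus lay above the highest young one, while O and O-re overlapped: 7 of 8 old repopulated libraries exceeded the highest old one, and replicate 8 did not.

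The group means of Axl were 281 ± 35.8 CPM in Y (SD, n = 7), 944 ± 160 in Y-re (n = 3), 463 ± 84.0 in O (n = 5) and 760 ± 214 in O-re (n = 8). With edgeR's quasi-likelihood test and Benjamini-Hochberg adjustment over all genes, Axl rose in old against young microglia by 0.72 ± 0.17 on the log2 scale (SE, adjusted p = 0.0198). Axl rose more after repopulation in young mice, by 1.75 ± 0.19 (adjusted p = 6.3e-05), and was higher in old repopulated than in young microglia by 1.44 ± 0.15 (adjusted p = 1.4e-05). These 3 comparisons share the young libraries. Against old mice, the old repopulated value was 0.71 ± 0.17 higher on the log2 scale and missed the threshold (adjusted p = 0.074). DESeq2 called that difference (adjusted p = 0.00598), as did edgeR without old repopulated replicate 1 (0.0391). It was not called in 6 of the 8 other settings, with 0.313 for edgeR on only the groups compared. Of the 23 edgeR fits without 1 library, 22 did not call it, with adjusted p up to 0.21. The old versus young call ended without old replicate 3 (0.0902), old replicate 5 (0.0739) or young replicate 7 (0.0514).

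The effect of repopulation on Axl was smaller in old than in young mice by 1.03 ± 0.25 on the log2 scale. This interaction had an unadjusted p of 0.000449 and an adjusted p of 0.336 with edgeR, over whose 18720 genes no adjusted p was under 0.319. It was called by DESeq2 (adjusted p = 0.04) and by limma's voom with sample weights (0.029). Old repopulated and young repopulated levels of Axl did not separate by edgeR, at -0.31 ± 0.19 (adjusted p = 0.501).

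**Figure D1:**
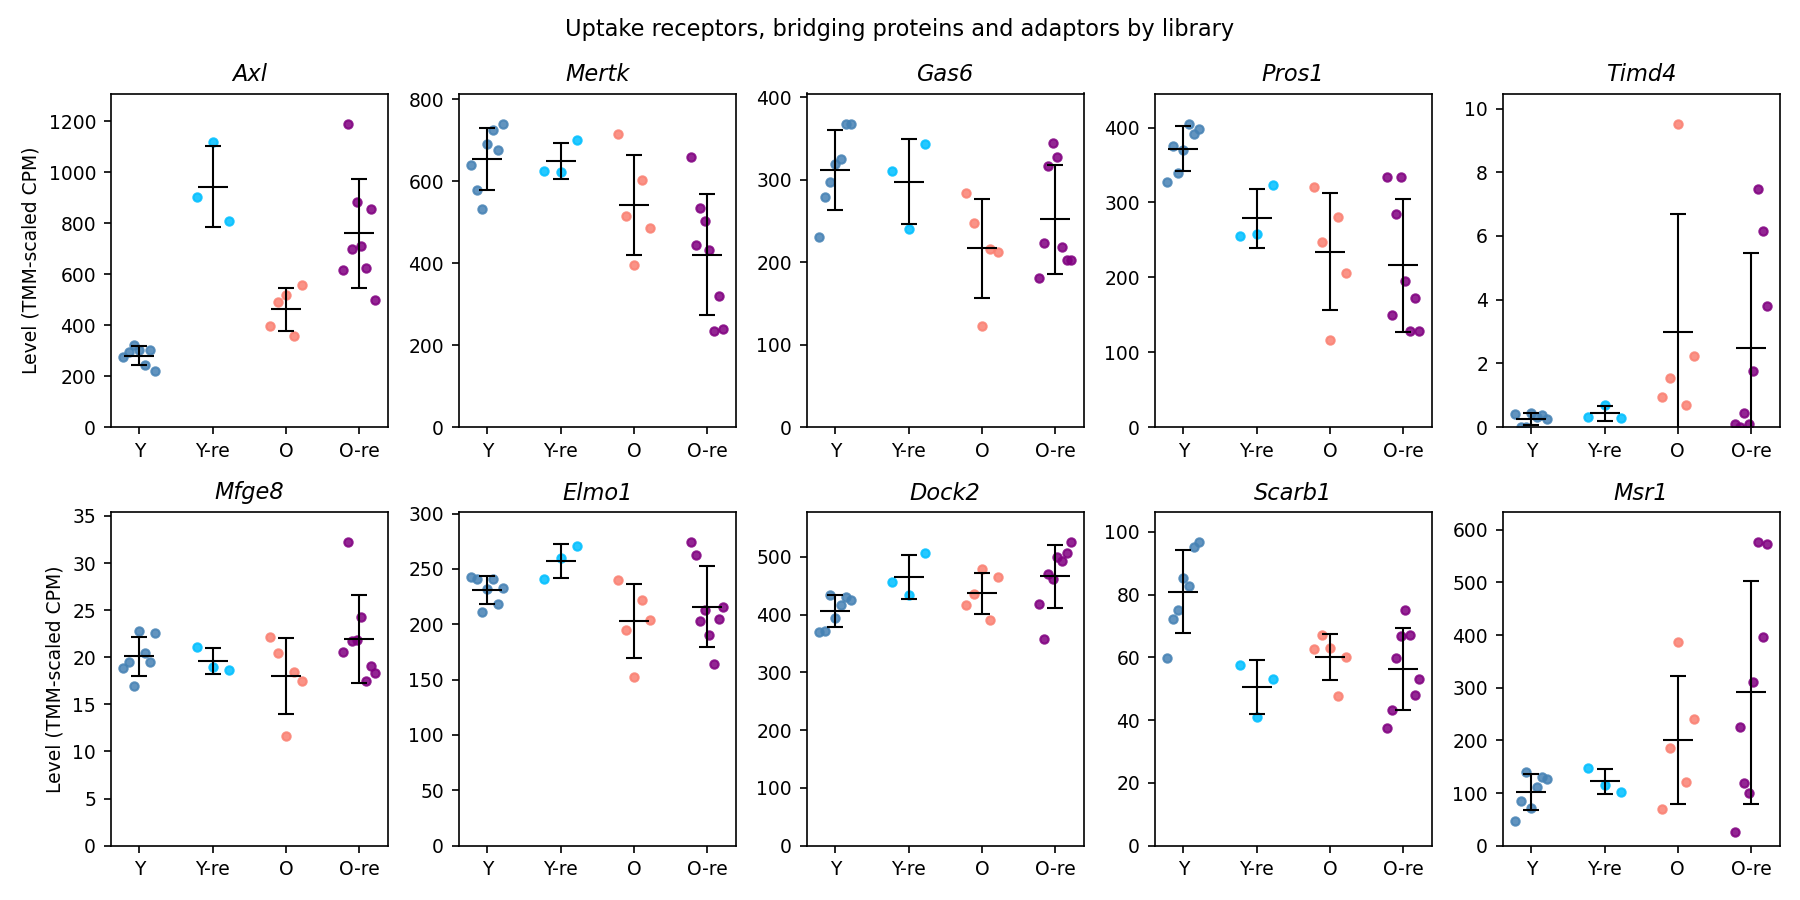
Level of each of the 10 genes in TMM-scaled CPM (vertical axes, linear from 0) in each library, by group (horizontal axes). Points are libraries, and bars show the mean and 1 SD, cut at 0 for Timd4. Axl in Y lies between 222 and 321 CPM, below every other library, while Timd4 and Msr1 spread widely within O and O-re.

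Mertk (ENSMUSG00000014361.5, chr2:128698956-128802894, plus strand) was at 532 to 740 CPM in Y with a median of 677, and at 623, 624 and 700 CPM in Y-re. The old libraries held 395, 486, 514, 604 and 714 CPM. In O-re the lowest was 235, the median 437 and the highest 658 CPM, with replicates 6, 7 and 8 at 235, 320 and 240. Of the 8 old repopulated libraries, 6 lay below the lowest young one. Mertk fell in old repopulated against young microglia by 0.64 on the log2 scale (SE 0.18, adjusted p = 0.0203). Its differences were -0.01 ± 0.24 for young repopulated against young (adjusted p = 0.988) and -0.27 ± 0.21 for old against young (0.588), neither called. For old repopulated against young repopulated it was -0.63 ± 0.23, also not called (unadjusted p = 0.0121, adjusted p = 0.39). Of the 8 old repopulated libraries, 7 lay below the lowest young repopulated one.

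The deposited TPM, which are scaled by transcript length and so allow levels to be compared between genes, showed the balance of the receptors. In young libraries Axl made up 24.0% to 53.7% of the summed TPM of Axl, Mertk and Tyro3, with a median of 31.6%. The highest of these was young replicate 3, and without it the range was 24.0% to 36.3%. Axl in young replicate 3 was 243 TPM next to 154 in young replicate 4, but 321 CPM next to 304. In CPM its Axl was still the highest and its Mertk, at 532 CPM, the lowest of the 7 young libraries. The size of its share thus depends in part on the use of TPM. The share was 55.4%, 63.4% and 64.7% in the 3 young repopulated libraries and 36.3% to 59.8% in the old ones. In old repopulated libraries it ran from 51.8% to 75.6%, with a median of 70.2%. Tyro3 stayed at or below 0.62 TPM in every library, so the balance was one of Axl against Mertk. By mean TPM the order in young microglia was Mertk (286 ± 43.2), Gas6 (212 ± 37.9), Pros1 (202 ± 26.7) and Axl (146 ± 46.8), of which Gas6 and Pros1 do not differ beyond their spread. Axl stood first in both repopulated groups, at 419 ± 61.8 TPM in Y-re and 361 ± 98.7 in O-re, and in old mice Mertk (237 ± 58.3) and Axl (226 ± 41.9) lay within their spread.

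**Figure D2:**
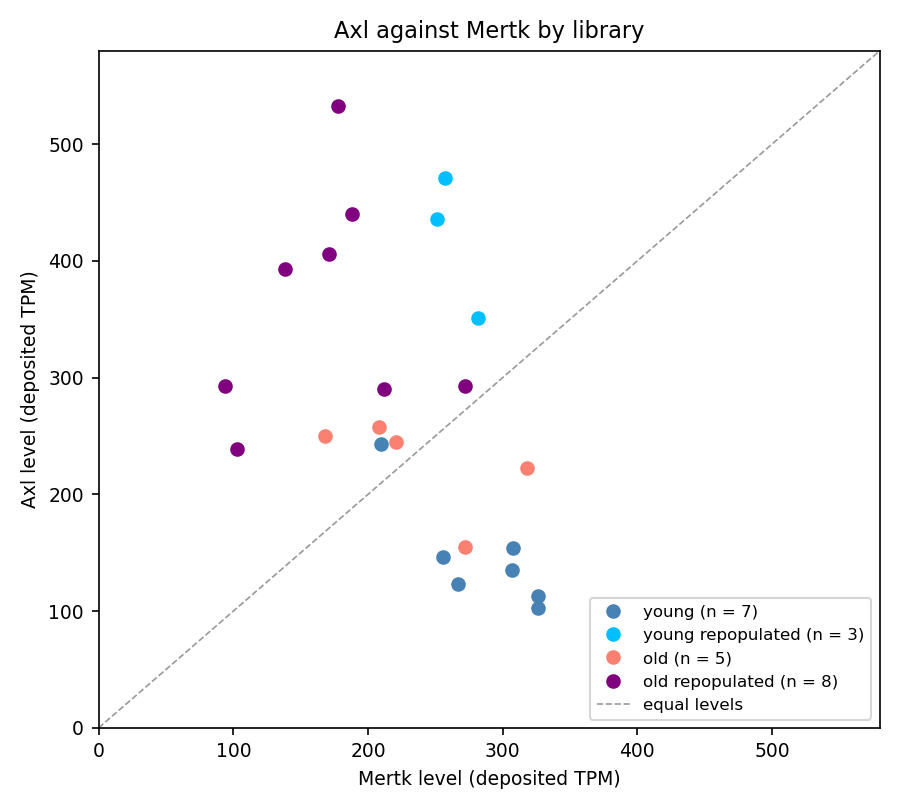
Deposited TPM of Axl (vertical axis) against that of Mertk (horizontal axis), 1 point per library, coloured by group, with a dashed line where both are equal. All 3 young repopulated and all 8 old repopulated libraries lie above the line, and among young libraries only replicate 3, at 243 TPM of Axl and 210 of Mertk, does.

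Timd4 (ENSMUSG00000055546.6, chr11:46810800-46844332, plus strand), a receptor known from long-lived tissue macrophages, was near the floor of detection. Young libraries held between 0 and 20 counts, equal to 0 to 0.432 CPM with a median of 0.32. Young repopulated libraries held 0.287, 0.32 and 0.711 CPM. The old libraries, at 0.687, 0.962, 1.53, 2.24 and 9.52 CPM, all lay above the highest young one. Old repopulated libraries split widely: 0 CPM was the lowest, 1.09 the median and 7.46 the highest, and 4 of 8 exceeded the young range. Timd4 rose in old repopulated against young microglia by 3.23 ± 1.05 on the log2 scale (adjusted p = 0.0398), a call that ended in 11 of the 23 fits without 1 library. Those were the fits without any 1 of the 7 young libraries or without old repopulated replicate 5, 6, 7 or 8, with adjusted p between 0.0507 and 0.0918. It also ended with voom (2.13, adjusted p = 0.136), with no filter (0.0507) and with only the groups compared (0.0643). For old against young the difference was 3.50 ± 1.11 (adjusted p = 0.0975), not called.

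Among the bridging proteins, Pros1 passed the test in 1 comparison and Gas6 and Mfge8 in none of the 6 in the edgeR fit of all 23 libraries. Pros1 (ENSMUSG00000022912.8, chr16:62854307-62929346, plus strand), also known as the anticoagulant protein S, was at 327 to 405 CPM in Y with a median of 375. The young repopulated libraries held 255, 258 and 324 CPM and the old ones 117, 206, 247, 281 and 320, all below the lowest young library. In O-re the lowest was 128, the median 184 and the highest 334 CPM, so 2 of 8 reached into the young range. Pros1 fell in old repopulated against young microglia by 0.79 on the log2 scale (SE 0.21, adjusted p = 0.0166). The value for old against young, -0.67 ± 0.25 (adjusted p = 0.169), and that for young repopulated against young, -0.42 ± 0.29 (0.555), missed the threshold although the groups did not overlap.

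Gas6 (ENSMUSG00000031451.6, chr8:13465374-13494490, minus strand), the ligand shared by all 3 TAM receptors, averaged 312 ± 48.9 CPM in Y, 298 ± 52.0 in Y-re, 217 ± 60.1 in O and 252 ± 65.9 in O-re. Its difference between old and young was -0.53 ± 0.19 (adjusted p = 0.158), and 3 of 5 old libraries lay below the lowest young one. Mfge8 (ENSMUSG00000030605.15, chr7:79133768-79149060, minus strand) was low and even, with means of 20.1 ± 2.08 CPM in Y, 19.6 ± 1.34 in Y-re, 18 ± 4.01 in O and 21.9 ± 4.66 in O-re. For Mfge8 in old repopulated against young microglia the interval of 2 SE around the difference of 0.13 ran from -0.13 to 0.39 (adjusted p = 0.555). In TPM, the ratio of Gas6 to Pros1 was 0.879 to 1.16 over the 7 young libraries and 1.21, 1.33 and 1.44 in the 3 young repopulated ones. It was 0.946 to 1.30 over the 5 old libraries and 0.661 to 2.10 over the 8 old repopulated ones.

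The engulfment adaptors Elmo1 and Dock2 were not called in any of the 6 comparisons in the edgeR fit of all 23 libraries. Elmo1 (ENSMUSG00000041112.16) had means of 231 ± 12.4 CPM in Y, 257 ± 15.2 in Y-re, 203 ± 33.1 in O and 216 ± 36.3 in O-re. Dock2 (ENSMUSG00000020143.15, chr11:34226815-34783892, minus strand), the Rac exchange factor of blood-derived cells and microglia, had 406 ± 27.7, 465 ± 38.0, 437 ± 35.6 and 466 ± 54.7 CPM in the same order. For old repopulated against young microglia the difference was -0.10 ± 0.10 for Elmo1 (adjusted p = 0.549) and 0.20 ± 0.08 for Dock2 (adjusted p = 0.0847), where 6 of 8 libraries exceeded the highest young one.

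The scavenger receptors differed in opposite directions between old repopulated and young microglia. Scarb1 (ENSMUSG00000037936.15, chr5:125277087-125341094, minus strand), which binds lipoproteins and phosphatidylserine, was at 59.9 to 96.7 CPM in Y with a median of 82.7. It stood at 41.0, 53.1 and 57.5 CPM in Y-re, below every young library, and at 47.7 to 67.1 CPM in O. In O-re the lowest was 37.5, the median 56.5 and the highest 75.0 CPM. Scarb1 fell in old repopulated against young microglia by 0.52 on the log2 scale (SE 0.14, adjusted p = 0.0121). Its difference between young repopulated and young mice was -0.68 ± 0.19 and missed the threshold (adjusted p = 0.071). It was called by DESeq2 (adjusted p = 0.0121), by voom (0.000452), by a fit of those 2 groups alone (0.0187) and in the fit without old repopulated replicate 1 (0.0413).

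Msr1 (ENSMUSG00000025044.16, chr8:39581685-39642673, minus strand), the class A scavenger receptor of macrophages, was at 47.2 to 140 CPM in Y with a median of 111, and at 102, 116 and 148 CPM in Y-re. The old libraries held 70.4, 121, 186, 240 and 387 CPM. In O-re Msr1 ran from 25.1 to 576 CPM with a median of 268, so this group held both the lowest and the highest library of the study, and 5 of 8 exceeded the young range. Msr1 rose in old repopulated against young microglia by 1.51 ± 0.47 on the log2 scale (adjusted p = 0.033). The call ended without old repopulated replicate 6, 7 or 8 or young replicate 1, 2 or 4, with adjusted p between 0.0548 and 0.0772.

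Counted over the 10 genes, old against young microglia gave 1 call (Axl, higher), where 2.83% of all tested genes were called. Young repopulated against young gave 1 call (Axl, higher), with 1.34% of all genes called. Old repopulated against young gave 3 higher (Axl, Timd4, Msr1) and 3 lower (Mertk, Pros1, Scarb1), with 15.2% of all genes called, 9.29% higher and 5.92% lower. Old repopulated against old gave 0 calls with edgeR (0.278% of all genes called) and 1 member at an unadjusted p under 0.05, Axl, as had 10.4% of all genes. DESeq2 and voom each called 1 member there, with 1.93% and 2.21% of all genes called. Old repopulated against young repopulated gave 0 calls among the 10 and among all genes (0.0%). There 1 member, Mertk, had an unadjusted p under 0.05, as had 11.7% of all genes. DESeq2 called 0 and voom 4 of the 10 there, with 0.544% and 17% of all genes called. The interaction gave 0 calls with edgeR (0.0% of all genes), 2 members at an unadjusted p under 0.05 (8.24% of all genes), and 1 call each with DESeq2 (0.284% of all genes) and voom (0.807%).

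Groups did not overlap for 3 members in old against young (Axl, Pros1, Timd4; 2.21% of all genes did not overlap). They did not overlap for 3 in young repopulated against young (Axl, Pros1, Scarb1), where the smaller group left 12.1% of all genes without overlap. In old repopulated against young 1 member did not overlap (Axl; 2.24%), and in the remaining pairs 0 did (0.737% against old, 2.26% against young repopulated). The median log2 fold change of the 10 genes in old repopulated against young was 0.01, next to -0.02 over all genes.

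**Figure D3:**
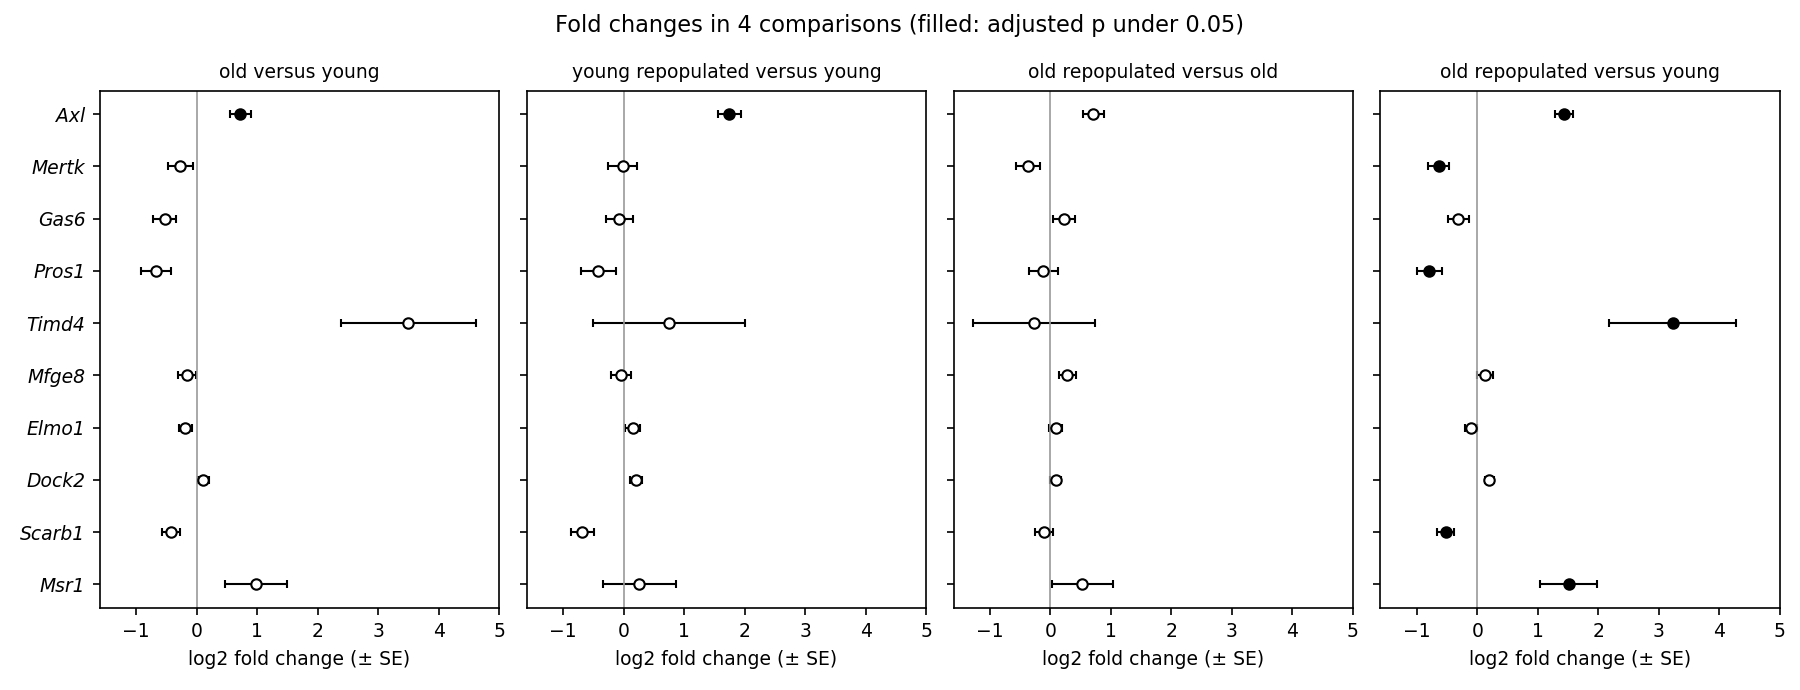
Log2 fold change with its SE (horizontal axes) for the 10 genes (vertical axis) in 4 comparisons, from the fit of all 23 libraries; filled points had an adjusted p under 0.05. Axl is the one filled point in the first 2 panels, and old repopulated versus young has 6.

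The levels of several members followed the marker sums across libraries. The 5 libraries with the lowest summed microglia markers were old repopulated replicates 5, 6, 7 and 8 and old replicate 3, at 9810 to 15200 CPM. The same 5 libraries were the 5 lowest for Mertk and the 5 highest for Msr1. They supplied 4 of the 5 lowest values of Pros1 and 4 of the 5 highest of Timd4. They also supplied 4 of the 5 highest values of Dock2. Of the 5 highest Axl values they supplied 1, and of the 5 lowest 0. Over all 23 libraries Axl had a Pearson r of 0.60 with the summed border-associated macrophage markers, 0.49 with the monocyte and neutrophil markers and -0.42 with the microglia markers, as a description of libraries that share groups. With the microglia markers r was 0.97 for Pros1, 0.92 for Mertk, 0.69 for Elmo1, 0.62 for Gas6, 0.32 for Mfge8 and 0.25 for Scarb1. It was -0.88 for Msr1, -0.86 for Timd4 and -0.59 for Dock2. All 3 young repopulated sums of border-associated macrophage markers, 508 to 758 CPM, lay above the highest young sum of 348. The 5 libraries with the lowest microglia marker sums held 1050 to 1680 CPM of border-associated macrophage markers. Their monocyte and neutrophil markers summed to 837 to 3020 CPM. In old repopulated against young microglia, where 15.2% of all genes were called, 4 of 10 microglia markers fell. There 7 of 10 border-associated macrophage markers and 8 of 10 monocyte and neutrophil markers rose. In old against young microglia, where 2.83% of all genes were called, 1 of 10 microglia markers fell. In that comparison 4 of 10 border-associated macrophage markers and 7 of 10 monocyte and neutrophil markers rose. The part of these markers in the results for the 10 genes was not tested. In young repopulated mice 2 of 10 border-associated macrophage markers rose and 0 of 10 microglia markers were called in either direction by edgeR. Of all genes 1.34% were called there.

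**Figure D4:**
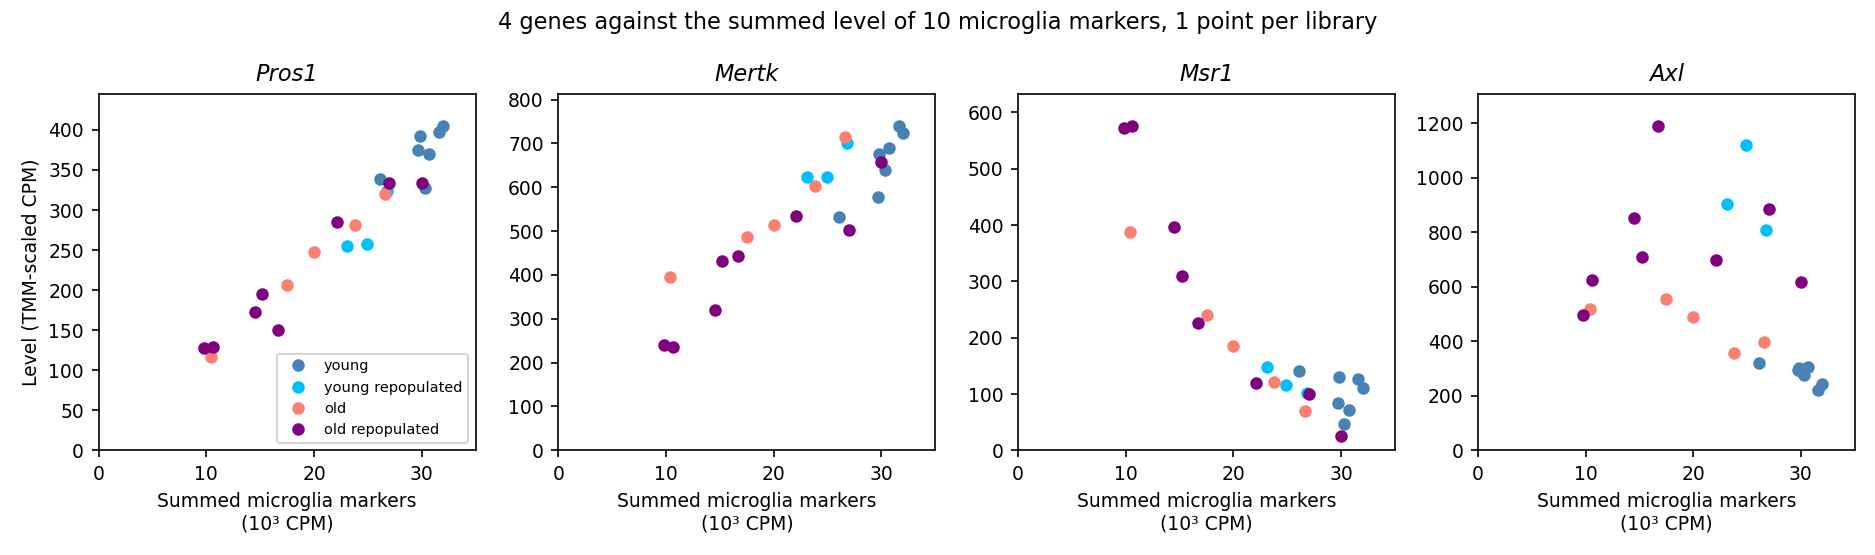
CPM of Pros1, Mertk, Msr1 and Axl (vertical axes) against the summed level of 10 microglia markers in units of 10³ CPM (horizontal axes), 1 point per library, coloured by group. Pros1 and Mertk are low and Msr1 is high in the libraries with the lowest marker sums, while Axl in those libraries spans 498 to 854 CPM.

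The sample titles carry library numbers, and they fall into a run from 1 to 11 (3 Y, 2 O and 5 O-re) and a run from 12 to 24 (4 Y, 3 Y-re, 3 O and 3 O-re). What the numbers stand for is not given. For old repopulated against young microglia, Axl was 1.47 ± 0.22 higher on the log2 scale in the lower run (adjusted p = 0.0728) and 1.31 ± 0.20 in the higher one (0.000358). Mertk was -0.18 ± 0.17 in the lower run (adjusted p = 0.739) and -1.41 ± 0.15 in the higher one (5.53e-05). Pros1 was at -0.41 ± 0.24 and -1.44 ± 0.24, and Msr1 at 0.78 ± 0.65 and 2.23 ± 0.32, in the same order. Scarb1 was at -0.29 ± 0.21 and -0.68 ± 0.14, and Timd4 at 1.69 ± 1.73 and 4.06 ± 0.70. Direction was shared by both runs for all 6 genes, whereas the lower run alone gave 0 calls among the 10 (0.0107% of all genes) and the higher one 8 (41.1%). Those 8 included Gas6 (-0.72 ± 0.18, adjusted p = 0.00658) and Dock2 (0.29 ± 0.08, 0.0128), which were not called in the fit of all 23 libraries.

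Within the higher run, 7 of the 10 genes were called between old and young (15.7% of all genes). Axl rose there by 0.84 ± 0.20 (adjusted p = 0.0136) and Timd4 by 3.57 ± 0.69 (0.0047), and Gas6 fell by 0.89 (SE 0.18, adjusted p = 0.00607). In the lower run the difference for Axl was 0.57 ± 0.25 (unadjusted p = 0.0458, adjusted p = 1.0) and that for Gas6 -0.02 ± 0.26, and 0 of the 10 genes were called (0.00533% of all genes). Repopulation in young mice could be compared only in the higher run, where Axl rose by 1.85 ± 0.20 (adjusted p = 0.000394) and Scarb1 fell by 0.80 (SE 0.14, adjusted p = 0.00528), the 2 of 10 that were called (9.3% of all genes). The interaction gave 3 calls in that run (Axl, Mertk, Scarb1; 8.87% of all genes), and old repopulated against young repopulated gave 6 (36.3%). Of those 6, Mertk (-1.31 ± 0.16, adjusted p = 0.000424), Elmo1 (-0.42 ± 0.14, 0.0309), Gas6 and Pros1 were lower, and Timd4 and Msr1 were higher. Axl between old repopulated and old mice stood at 0.90 ± 0.25 in the lower run (unadjusted p = 0.00377, adjusted p = 1.0) and at 0.47 ± 0.21 in the higher one (0.0482 and 0.168), where Mertk was the 1 member called (12.7% of all genes).

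**Figure D5:**
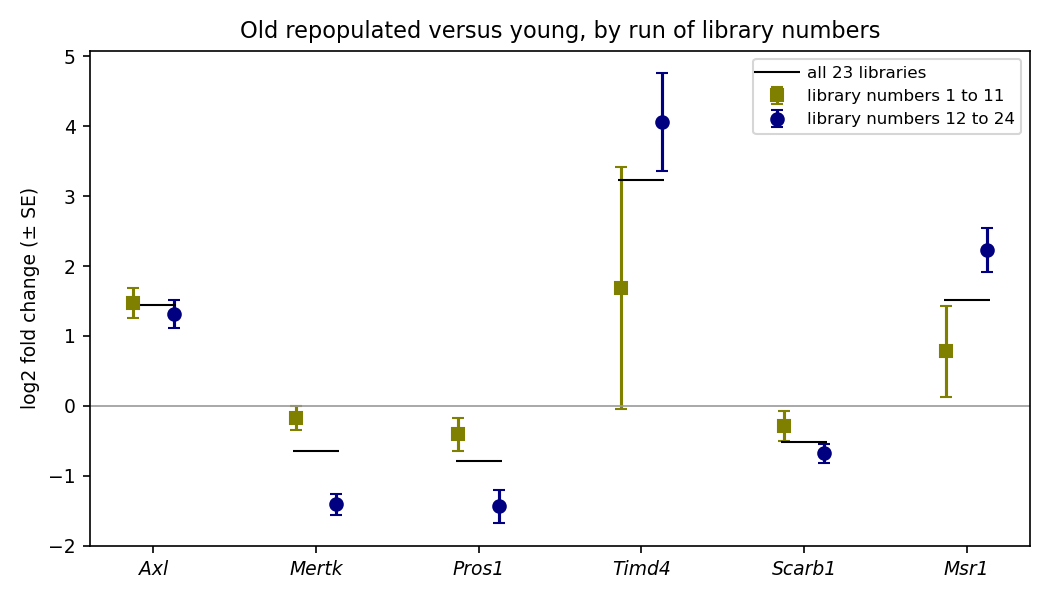
Log2 fold change with SE (vertical axis) of the 6 genes called in old repopulated versus young microglia, within library numbers 1 to 11 (squares) and 12 to 24 (circles), with the value of all 23 libraries as a line. Axl is nearly level between the runs at 1.47 and 1.31, whereas Mertk is at -0.18 and -1.41.

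The wider pathway was read from 7 lists of 80 further genes, of which 76 were tested. In old against young microglia 13 rose and 0 fell, where 2.83% of all genes were called. This count rested on a few libraries: it was 0 without old replicate 3, where calls over all genes went from 530 to 100, 6 without old replicate 5, and 8 without young replicate 4, 5, 6 or 7. With voom 16 were higher and 15 lower. The largest rises were those of Thbs1 (4.06 ± 0.87 on the log2 scale, adjusted p = 0.0124), a bridging thrombospondin, Anxa1 (3.53 ± 0.80, 0.0181), an annexin that binds phosphatidylserine, Dock5 (3.42 ± 0.90, 0.0397), a relative of Dock2, and Gpr132 (3.29 ± 0.69, 0.0112), a receptor for lysophosphatidylcholine signals. In all 4 the groups overlapped, and in all 4 young replicate 3 was the highest young library, with 902 CPM of Thbs1 against a young median of 109. Young replicate 3 also held the highest young sums of monocyte and neutrophil markers (293 CPM) and of border-associated macrophage markers (348 CPM). Old replicate 3 held the highest old sums, 2200 and 1340 CPM. The part of these markers in the rises of pathway genes was not tested. In young repopulated mice 2 rose, Itgax (1.65 ± 0.33, adjusted p = 0.0134), an integrin of phagocytes, and Apoe (1.59 ± 0.35, 0.0251), a lipid carrier, and 0 fell, with 1.34% of all genes called. The 2 became 0 without young repopulated replicate 1, 1 without replicate 2 or 3 of that group, and 6 without young replicate 3.

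In old repopulated against young microglia 18 of the 76 rose and 8 fell, where 9.29% of all genes rose and 5.92% fell. Those counts were 22 and 22 with voom (35.5% of all genes called) and 23 and 22 within numbers 12 to 24 (41.1%). Within numbers 1 to 11 they were 0 and 0 (0.0107%). Thbs1 (3.88 ± 0.83), Anxa1 (3.76 ± 0.77) and Dock5 (3.57 ± 0.86) again were among the largest, with adjusted p of 0.00388, 0.00315 and 0.00823. Havcr1, the phosphatidylserine receptor TIM-1, was called as well (adjusted p = 0.0246) on 0 counts in all 7 young libraries and at most 18 counts in an old repopulated one. A count was present in 5 of the 8 old repopulated libraries, and their group mean was 0.171 CPM. Young repopulated libraries were at 0 CPM as well. Havcr1 thus passed the filter through old libraries alone, and its call is not independent of that filter. The other bridging proteins had 3 of 8 rise and 0 fall, and the other uptake receptors 6 rise and 2 fall of 20. The list medians were 0.30 and 0.09 on the log2 scale, next to -0.02 over all genes. Between old repopulated and old microglia 0 of the 76 genes were called by edgeR, where 0.278% of all genes were called. Rises and falls numbered 1 and 1 with DESeq2 (1.93% of all genes called) and 1 and 2 with voom (2.21%). They were 10 and 4 within numbers 12 to 24 (12.7%) and 0 and 0 within numbers 1 to 11 (0.0%).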

How the data were processed

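Messenger RNA of microglia was measured in 23 libraries. Between 2.4 and 147 ng RNA entered each library, selected for poly(A), with a stranded kit and 50 nt reads, per the labels' protocols. These texts describe both cultured CD11b-selected cells and sorted cells, and the extraction text names sorted cells. The submitters' processing notes name FastQC 0.11.5, STAR, RSEM, limma and GRCm38. The authors deposited expected counts (RSEM estimates, 87.26% of them whole within 1e-06) and TPM (length-scaled levels) for 53090 genes per library, per the file headers. Here the expected counts were rounded, and the deposited TPM were used as given to compare levels between genes. RSEM divides reads among similar genes, and the use of strand in counting is not given in the sources used here.

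Counts were tested with edgeR 4.0.16 in R 4.3.3 (filterByExpr, TMM scaling, quasi-likelihood test, 1 model of 23 libraries with 6 comparisons, Benjamini-Hochberg adjustment over 18720 genes). A gene was called at an adjusted p under 0.05; the steps were tested on simulated data. CPM are TMM-scaled. Alternatives were RLE size factors, DESeq2 1.42.0, limma 3.58.1 voom with sample weights, and no filter. Others were the run of library numbers as a term, only the groups compared, each run alone, and leaving out each library. Leaving young replicate 3 out of the TPM ratio was chosen after seeing the data. The 10 genes, the pathway and marker lists and the tests were chosen with earlier results of these data known. All 10 genes were named, with up to 4 called pathway genes of largest fold change per comparison, and for each called member the 2 genes of highest correlation. Coordinates come from GENCODE M21 for identical identifier versions, which Elmo1 lacks. Promoters come from RefSeq (GRCm38.p6); those of Scarb1 and Msr1 are not shown.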

Additional observations from a re-analysis of the deposited data

Results flagged for a closer look

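Of 30 combinations of a gene and a group with 4 to 10 libraries, 2 held a library far from the others; chance alone marks about 1 in 20 such groups. Timd4 stood at 9.52 CPM in old replicate 3, and the next highest old library had 2.24 CPM. Mfge8 stood at 32.2 CPM in old repopulated replicate 2, and the next highest had 24.3 CPM.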

How the results depend on the processing

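No paired analysis was possible because the labels number each library once across the series; the replicate numbers used here follow accession order and tie no libraries to a litter, batch or day. The 6 members called between old repopulated and young microglia gave 5 to 8 calls under 7 other settings and 0 within library numbers 1 to 11; leaving out 1 library gave 4 to 7. For old against young, 1 call became 2 with DESeq2 (5.62% of all genes called), 4 with voom (12.6%), 2 with only the groups compared (4.09%), 7 within numbers 12 to 24 (15.7%), 0 within numbers 1 to 11 (0.00533%), and 0 to 1 without 1 library. For old repopulated against old, 0 became 1 with DESeq2 (1.93%), 1 with voom (2.21%), 1 within numbers 12 to 24 (Mertk, 12.7%), and 0 to 1 without 1 library. For young repopulated against young, 1 became 2 with DESeq2 (5.16%), 3 with voom (13.8%), 3 with only the groups compared (7.5%), 2 within numbers 12 to 24 (9.3%), and 1 to 2 without 1 library. For old repopulated against young repopulated, 0 became 4 with voom (17%), 1 with the run of library numbers as a term (4.52%) and 6 within numbers 12 to 24 (36.3%). For the interaction, 0 became 1 with DESeq2 (0.284%), 1 with voom (0.807%) and 3 within numbers 12 to 24 (Axl, Mertk, Scarb1; 8.87%). The cause of these shifts was not tested.

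Over all genes, and apart from fits without 1 library, counts of calls ranged from 1 to 2691 for old against young (530 in the fit reported), 0 to 2187 for old repopulated against old (52), 165 to 2574 for young repopulated against young (251), 2 to 7068 for old repopulated against young (2847), 0 to 6236 for old repopulated against young repopulated (0) and 0 to 1524 for the interaction (0). Without 1 library they ran, in the same order, from 100 to 941, 5 to 185, 33 to 407, 1955 to 4772, 0 to 1 and 0 to 1. Under the alternatives run, no direction reversed for the members called in a comparison, for Axl in all 6 comparisons or for Scarb1 in young repopulated against young. Without young replicate 3 the mean ratio of Axl to Mertk TPM in young microglia was 0.439, against 0.542 with it. Timd4, at 0 to 20 counts in young libraries, is limited by depth.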

Other observations

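For each member called in any comparison, the 2 genes with the most similar log2 CPM over the 23 libraries were found among 9708 genes. These correlations describe libraries that share group and cell composition. Axl was most like Ndst1 (Pearson r = 0.92), an enzyme of heparan sulfate synthesis, and Clec7a (0.89), the receptor dectin-1. Mertk was most like Ggt5 and Scamp2 (both 0.97), and Pros1 most like Plxdc2 and Sparc (both 0.98), of which Sparc encodes a secreted matrix protein. Msr1 was most like Ywhab and Sept9 (both 0.97), Scarb1 most like Arl6ip1 (0.94) and Rab31 (0.87), and Timd4 most like Ascc3 and Ttc7 (both 0.88).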
